A study of Mus musculus with 12 samples.

Results

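The Sprr2 genes encode small proline-rich proteins of the cornified envelope, the protein shell that forms beneath the membrane of a dying keratinocyte. Transglutaminases crosslink these short proteins into the shell, where they bridge larger components such as loricrin, and their genes lie together in the epidermal differentiation complex. In mouse skin they are known as genes of the outer differentiated layers whose RNA rises with wounding, inflammation and barrier damage. The 10 genes described are Sprr2a1, Sprr2a2, Sprr2a3, Sprr2b, Sprr2d, Sprr2e, Sprr2f, Sprr2g, Sprr2h and Sprr2i, chosen by symbol. All 10 were found among the 47643 gene IDs of each table.

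Poly(A) RNA was sequenced from 10-week-old C57BL/6 mice in 4 groups of 3 libraries, namely whole skin of Adam17 conditional knockout mice (Skin KO), whole skin of wild type mice (Skin WT), epidermis of the same knockout genotype (Epidermis KO) and epidermis of wild type mice (Epidermis WT). The knockout combined floxed Adam17 alleles (ADAM17fl/fl) with Sox9-Cre. Adam17 encodes a membrane protease that sheds growth factors and cytokines from the cell surface, and Sox9 is expressed in the hair follicle lineage, so the deletion need not reach every skin cell. The labels name no Cre or floxed allele for the wild type mice and no treatment for any group, and the way epidermis was separated is not given in them. Nor do they state that each library is a different mouse, so a p-value here speaks of the scatter among these libraries, part or all of which could be technical.

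Libraries held between 12208522 and 16743144 expected counts, estimated read numbers per gene. Levels are given as CPM (counts scaled to a common library size), with TMM scaling over the 12 libraries, which adjusts library totals for differences in composition. The log2 fold changes use TMM scaling computed on the libraries of each comparison, so they need not equal the ratio of the CPM printed beside them. Each SE is the log2 fold change without its sign, divided by the square root of the F statistic of its test. It can mislead where reads are few. Adam17 had 41.6, 52.1 and 52.5 CPM in Skin KO and 72.3, 96.3 and 94.1 CPM in Skin WT, which edgeR's quasi-likelihood test put at -0.75 on the log2 scale (SE 0.16, adjusted p = 0.00797). It had 48.4, 58.1 and 47.3 CPM in Epidermis KO and 78.9, 86.4 and 79.4 CPM in Epidermis WT (log2 fold change -0.66, SE 0.12, adjusted p = 0.00213). In both tissues the highest KO library was below the lowest WT library, and reads outside the deleted part of the gene are included. In skin the call was lost with the share of Y-linked reads as a covariate (log2 fold change -0.59, adjusted p = 0.0805) and with Skin KO 2 as the only knockout library (-0.63, adjusted p = 0.17). The marker genes went with the tissue labels, since summed fibroblast markers ran from 63.3 to 126 CPM in Epidermis KO and from 5.96 to 10.5 CPM in Epidermis WT, against 745 to 1713 CPM in Skin KO and 2127 to 2880 CPM in Skin WT. Genes of the Y chromosome had between 0 and 1781 reads in the 6 KO libraries and 0 reads in all 6 WT libraries. Xist, a noncoding RNA of female cells, had between 660 and 3222 reads in the WT libraries and 0 reads in Skin KO 1 and Epidermis KO 1. Reads of both kinds occurred in Skin KO 3 (319 of Xist, 1034 Y-linked), in Epidermis KO 2 (2511 of Xist, 213 Y-linked) and in Epidermis KO 3 (2050 of Xist, 679 Y-linked). The labels give neither sex nor pooling, and whether these 3 libraries hold RNA of more than 1 mouse, which bears on n and the SD of the knockout groups, was not tested. Values without them are given beside the results for epidermis, for the interaction and between the knockout tissues. For skin, Skin KO 3 was left out only among the single-library omissions, for which the calls are given.

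The members lie on chromosome 3 between 92215799 and 92409271, a span of 193.5 kb in which all 10 are annotated on the plus strand (GENCODE mouse release 21, GRCm38, also called mm10). RefSeq's promoter windows for GRCm38.p6, from 250 bases before to 50 bases after each annotated start, were available for 9 of the 10 members, and Sprr2g was not among them. The 250 bases before the start are shown for 4 members, because they carry the elements that most members have in common and show where the Sprr2a copies stand. Capitals mark matches to 3 motifs and nothing else. The AP-1 motif was searched on both strands as TGANTCA. The octamer was also searched on both strands, as ATGCAAA, and is seen here as its reverse complement. The TATA box was searched on the plus strand only, by the letters TATAAA.
Sprr2d (chr3:92338890-92339139, plus strand): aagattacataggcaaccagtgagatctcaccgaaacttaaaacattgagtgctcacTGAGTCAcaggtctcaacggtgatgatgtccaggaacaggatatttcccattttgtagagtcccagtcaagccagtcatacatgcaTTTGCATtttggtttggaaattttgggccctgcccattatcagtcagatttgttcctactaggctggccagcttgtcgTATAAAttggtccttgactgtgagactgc
Sprr2b (chr3:92316455-92316704, plus strand): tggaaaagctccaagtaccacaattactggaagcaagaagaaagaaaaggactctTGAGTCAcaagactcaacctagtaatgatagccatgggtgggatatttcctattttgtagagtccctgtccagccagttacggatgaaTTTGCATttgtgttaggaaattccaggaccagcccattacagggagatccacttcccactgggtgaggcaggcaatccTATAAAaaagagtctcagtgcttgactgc
Sprr2h (chr3:92385435-92385684, plus strand): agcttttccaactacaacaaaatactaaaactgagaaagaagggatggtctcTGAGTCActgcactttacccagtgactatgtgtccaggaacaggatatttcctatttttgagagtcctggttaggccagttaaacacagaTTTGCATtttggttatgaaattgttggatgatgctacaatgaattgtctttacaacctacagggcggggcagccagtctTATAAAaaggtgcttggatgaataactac
Sprr2a2 (chr3:92250397-92250646, plus strand): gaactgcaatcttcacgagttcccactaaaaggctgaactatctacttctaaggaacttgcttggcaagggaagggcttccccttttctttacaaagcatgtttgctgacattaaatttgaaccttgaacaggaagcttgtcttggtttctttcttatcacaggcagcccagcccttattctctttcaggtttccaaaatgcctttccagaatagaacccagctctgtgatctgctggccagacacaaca
The same 3 elements stood in the same order in 6 of the 9 windows, those of Sprr2b, Sprr2d, Sprr2e, Sprr2f, Sprr2h and Sprr2i. Positions are counted from the start, with the base before it as -1. The AP-1 letters began between -198 and -193 and were present in 7.81% of all 32851 RefSeq promoter windows. The octamer letters began between -111 and -107 (4.63% of windows), and TATAAA began at -29 in all 6 (8.32% of windows). AP-1 is the binding element of Fos and Jun proteins, and the octamer that of POU factors such as Pou2f3. No overlap occurred between these matches. The 6 windows were also alike in sequence, with identity over aligned bases from 73.1% (Sprr2b and Sprr2i) to 89.9% (Sprr2d and Sprr2e). They are therefore not 6 independent occurrences to set against the shares of all windows.

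None of these 3 letter sets occurred in the windows of Sprr2a1, Sprr2a2 or Sprr2a3. The windows of Sprr2a1 and Sprr2a2 were identical over all 300 bases, and that of Sprr2a3 shared a run of 272 bases with them. The annotated starts of the Sprr2a copies are not placed as in the other genes. A run of 18 bases shared by Sprr2a1 and Sprr2b began at base 6 after the start in Sprr2a1 and at -80 in Sprr2b. Counted from this run without gaps, the TATAAA of Sprr2b would fall beyond the end of the Sprr2a1 window. The AP-1 and octamer letters of Sprr2b would fall inside that window, where neither motif occurred. The absence of these letters says nothing beyond the window. Of 5 other motifs searched on both strands, the interferon-stimulated response element (ISRE) occurred in none of the 9 windows (3.44% of all) and the KLF letters CCNCNCCC in 4 (49.5% of all). STAT letters (TTCNNNGAA) occurred in 2 windows (8.3% of all), ETS letters (GGAAGT) in 1 (23.8% of all) and antioxidant response letters (TGACNNNGC) in 1 (12.4% of all). Sprr2d and Sprr2e had the most similar windows outside the Sprr2a copies, with 89.9% identity over 298 aligned bases, and Sprr2e and Sprr2f had 85.4% over 280.

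**Figure D1:**
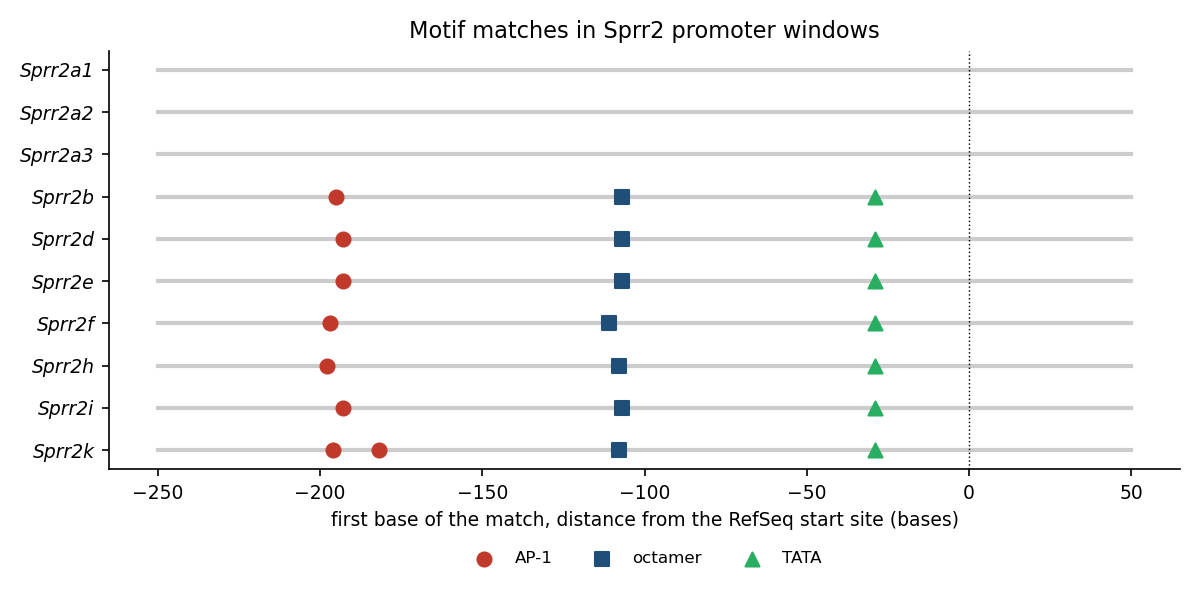
Matches to AP-1, octamer and TATA letters in the RefSeq windows of 9 Sprr2 members and of Sprr2k, a further copy. The x axis gives the distance of the first base of a match from the annotated start in bases, with 1 row a gene. AP-1 letters lie between -198 and -182, octamer letters between -111 and -107 and TATAAA at -29 in 7 genes. The Sprr2a rows hold no match, and the Sprr2a starts are placed differently.

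How well the copies could be counted apart differed within the family. Of the 75-base stretches of annotated transcripts, 5.74% in Sprr2a1, 5.34% in Sprr2a2 and 52.5% in Sprr2a3 occurred in no other gene, whereas the share was 93.9% to 100% for the other 7 members. The annotated loci of Sprr2a1 and Sprr2a2 overlap, and 94.7% of the stretches of Sprr2a2 also occurred in Sprr2a1. The counting program divides reads that fit several genes by probability, and the counts of Sprr2a1, Sprr2a2 and Sprr2a3 were not whole numbers in any of the 12 libraries, while those of Sprr2f, Sprr2g and Sprr2h were whole in all. Sprr2a2 received between 90.0% and 94.2% of the reads of the 3 copies in each library, Sprr2a3 between 3.72% and 5.95% and Sprr2a1 between 1.26% and 5.21%. Levels of the single Sprr2a copies are uncertain for this reason, and their sum does not depend on how reads were divided among them. The read length is not given in the sources used here.

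The first comparison asked how Sprr2 RNA differs in whole skin of the knockout. All 10 members rose in Skin KO, and the summed level was 8391 ± 791 CPM in Skin KO against 55.1 ± 24.4 CPM in Skin WT (SD, n = 3 each), a 152-fold ratio. Sprr2 reads made up between 0.866% and 1.02% of a Skin KO library and between 0.00314% and 0.00847% of a Skin WT library. Adjusted p was below 0.05 and the KO libraries higher in 10 of 10 members, against 22.2% of the 14906 genes tested (23.3% were lower, and 45.5% were called in either direction). Every KO library lay above every WT library for 10 of 10 members, as for 25.8% of all genes tested, while 32.2% were separated the other way. The median log2 fold change of the members was 9.78 (6.41 to 11.29), beside -0.0014 over all genes. In bulk RNA, more cells of a type and more RNA per cell cannot be told apart.

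The Sprr2a copies held most of the reads. Sprr2a2 (ENSMUSG00000068893.5) had 5729, 6816 and 5967 CPM in Skin KO, against 57.5, 23.4 and 63.3 CPM in Skin WT. Its log2 fold change was 7.10 (SE 0.47, adjusted p = 0.000127), a 137-fold rise. Skin WT 2 was the lowest library and the KO libraries lay close together. Sprr2a3 (ENSMUSG00000074445.4) had 303, 370 and 345 CPM in Skin KO and 3.08, 1.20 and 3.83 CPM in Skin WT (log2 fold change 7.07, SE 0.43, adjusted p = 9.88e-05). Sprr2a1 (ENSMUSG00000078664.2) had 86.6, 114 and 106 CPM in Skin KO and 0.98, 1.36 and 1.46 CPM in Skin WT (log2 fold change 6.41, SE 0.21, adjusted p = 1.32e-05). All 3 copies had reads in every Skin WT library, as did Sprr2d, Sprr2g, Sprr2h and Sprr2i, whereas Sprr2b, Sprr2e and Sprr2f were at 0 in at least 1 of them.

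Sprr2d (ENSMUSG00000042212.3, 92339140 to 92340873) was the most abundant of the other members, with 674, 913 and 746 CPM in Skin KO against 0.28, 0.42 and 0.85 CPM in Skin WT. Its log2 fold change was 10.62 (SE 0.40, adjusted p = 1.79e-05). Sprr2h (ENSMUSG00000046259.2, 92385685 to 92387324) had 223, 290.2 and 252 CPM in Skin KO and 1.89, 0.84 and 3.10 CPM in Skin WT (log2 fold change 7.14, SE 0.46, adjusted p = 0.000113). Of the 7 members outside the Sprr2a copies it was the one with the highest level in wild type skin. Sprr2g (ENSMUSG00000046203.11), annotated as a polymorphic pseudogene, had 134, 150.01 and 162 CPM in Skin KO and 0.21, 0.10 and 0.43 CPM in Skin WT (log2 fold change 9.31, SE 0.34, adjusted p = 1.59e-05). Sprr2e (ENSMUSG00000055030.1) had 176, 200.1 and 202 CPM in Skin KO, against 0 CPM in Skin WT 1 and 2 and 0.49 CPM in Skin WT 3 (log2 fold change 10.25, SE 0.71, adjusted p = 0.000159). The wild type reads of Sprr2e thus came from 1 library, and without Skin WT 3 its fitted log2 fold change became 14.58, against 9.60 without Skin WT 2, so its size is poorly bounded. Sprr2g moved to 9.95 without Skin WT 3.

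For 3 members the wild type level rested on a handful of reads. Sprr2i (ENSMUSG00000042157.2) had 150.1, 158 and 162 CPM in Skin KO and 0.14, 0.05 and 0.06 CPM in Skin WT, where the group held 4 reads (log2 fold change 10.88, SE 0.24, adjusted p = 8.52e-06). That SE understates the uncertainty of a rise whose wild type level rests on 4 reads, and no counting interval was computed for Sprr2i. Sprr2b (ENSMUSG00000050092.3) had 142, 134 and 131 CPM in Skin KO, against 0, 0.05 and 0.12 CPM in Skin WT. With 3 wild type reads the ratio of reads per total was 2307, with a 95% counting interval of 789 to 11187 (adjusted p = 1.32e-05). Sprr2f (ENSMUSG00000050635.1) had 106, 120.2 and 115 CPM in Skin KO, against 0.07, 0 and 0.06 CPM in Skin WT. With 2 wild type reads its ratio was 2914 (95% counting interval 806 to 24069, adjusted p = 1.32e-05). Such intervals cover counting error only, and 3 reads correspond to between 0.179 and 0.246 CPM of a library. The fitted log2 fold change of Sprr2b, 11.05, became 11.87 without Skin WT 3, and that of Sprr2f, 11.29, became 10.69 without Skin WT 2.

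Skin KO 2, which held 0 Y-linked reads, had the highest Sprr2 sum of its group at 9264 CPM, beside 7723 CPM in Skin KO 1 (1728 Y-linked reads) and 8187 CPM in Skin KO 3 (1034 Y-linked reads). Over 17 alternatives, which included the share of Y-linked reads as a covariate and Skin KO 2 as the only knockout library, each of the 10 members kept its call, with an adjusted p of at most 0.00504. Skin KO 3, the skin library with both Y-linked and Xist reads, was among the libraries left out in turn. In the fit with 1 knockout library that library is assumed to vary as the wild type libraries did. Markers of other cell types moved with genotype. Summed skeletal muscle markers ran from 464 to 2457 CPM in Skin KO and from 7142 to 58634 CPM in Skin WT with 6 of 6 genes lower, and adipocyte markers from 191 to 475 CPM in Skin KO and from 2305 to 2891 CPM in Skin WT, again with 6 of 6 lower. Suprabasal keratinocyte markers summed to between 34899 and 40913 CPM in Skin KO and between 23673 and 31969 CPM in Skin WT, with 1 of 8 genes higher and 4 lower. Sebaceous gland markers summed to between 1405 and 1964 CPM in Skin KO and between 378 and 525 CPM in Skin WT, with 4 of 6 genes higher. The part of these markers in the Sprr2 result was not tested.

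**Figure D2:**
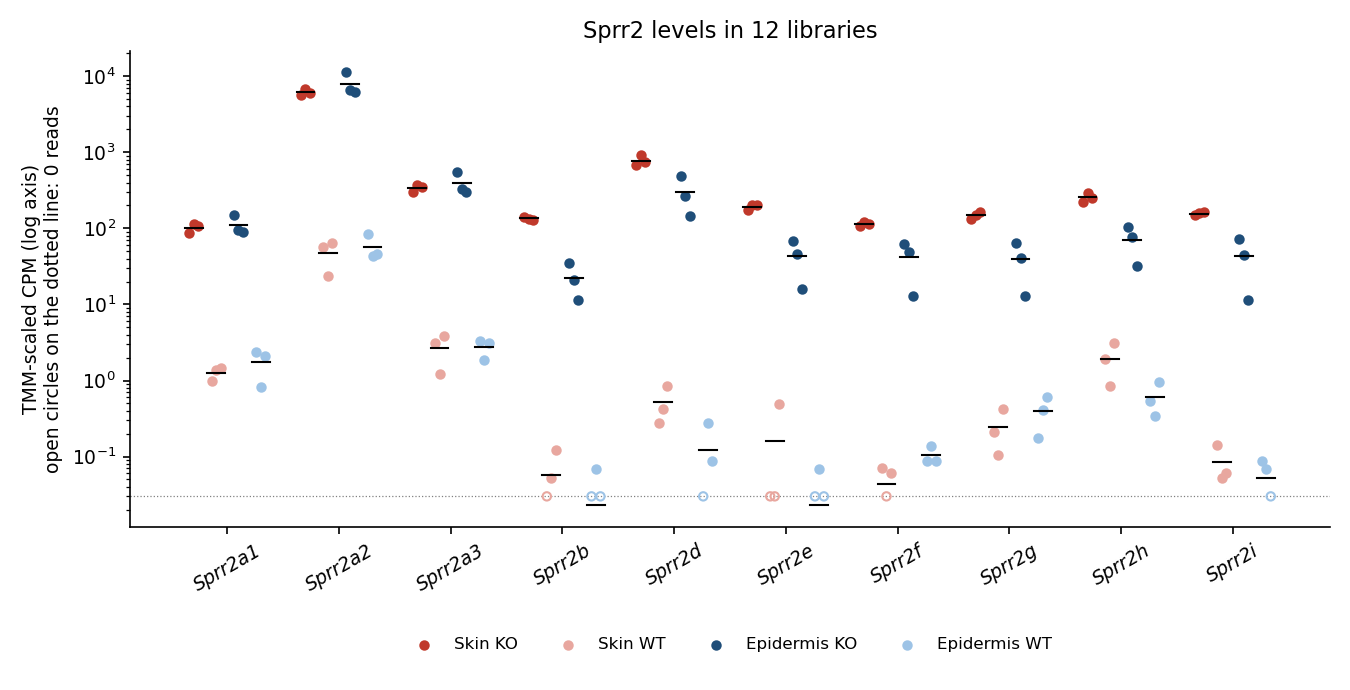
CPM of each Sprr2 member in the 12 libraries on a log axis, 1 point a library and a bar at the group mean, with open circles for libraries at 0 reads. Knockout libraries lie above wild type libraries of the same tissue for every member, and in the 7 members from Sprr2b to Sprr2i the Epidermis KO points lie below the Skin KO points.

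The second comparison asked the same question in epidermis. All 10 members rose in Epidermis KO too, and the summed level was 9065 ± 3249 CPM in Epidermis KO against 63.5 ± 23.0 CPM in Epidermis WT (SD, n = 3 each), a 143-fold ratio. Sprr2 reads made up between 0.677% and 1.05% of an Epidermis KO library and between 0.00449% and 0.00834% of an Epidermis WT library. Adjusted p was below 0.05 with a higher KO level in 10 of 10 members, against 26.2% of the 13632 genes tested (51.5% called in either direction). The groups did not overlap for 10 of 10 members, as for 30.4% of all genes in that direction and 31.6% in the other. The members' median log2 fold change was 7.84 (6.03 to 11.04), beside 0.0031 over all genes.

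Sprr2a2 again held most of the reads, with 11210, 6503 and 6286 CPM in Epidermis KO against 83.3, 43.2 and 46.5 CPM in Epidermis WT. Its log2 fold change was 7.13 (SE 0.41, adjusted p = 8.47e-06), a 140-fold rise. Epidermis KO 1 stood above the other two knockout libraries. Sprr2a3 had 557, 325 and 304 CPM in Epidermis KO and 3.36, 1.86 and 3.11 CPM in Epidermis WT (log2 fold change 7.18, SE 0.34, adjusted p = 3.73e-06). Sprr2a1 had 149.6, 96.3 and 88.4 CPM in Epidermis KO and 2.38, 0.83 and 2.07 CPM in Epidermis WT (log2 fold change 6.03, SE 0.35, adjusted p = 8.56e-06). For all 3 copies Epidermis KO 1 was the highest library, by 1.69 to 1.83 times over the lowest.

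Among the other 7 members the knockout libraries were further apart. Sprr2d had 481, 269 and 146 CPM in Epidermis KO, against 0, 0.28 and 0.09 CPM in Epidermis WT (log2 fold change 11.04, SE 0.70, adjusted p = 1.33e-05). Sprr2h had 104, 76.1 and 31.7 CPM in Epidermis KO and 0.53, 0.34 and 0.95 CPM in Epidermis WT (log2 fold change 6.89, SE 0.56, adjusted p = 4.38e-05). Sprr2g had 64.3, 40.6 and 12.9 CPM in Epidermis KO and 0.18, 0.41 and 0.60 CPM in Epidermis WT (log2 fold change 6.59, SE 0.72, adjusted p = 0.000181). For Sprr2d the value became 12.45 without Epidermis WT 2, the wild type library with most of its reads. Epidermis KO 1 was the highest and Epidermis KO 3 the lowest library for each of the 7. The highest exceeded the lowest by between 3.09 times (Sprr2b) and 6.21 times (Sprr2i), whereas in Skin KO no member spread by more than 1.36 times.

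Sprr2f had 62.8, 49.4 and 12.7 CPM in Epidermis KO, against 0.09, 0.14 and 0.09 CPM in Epidermis WT (log2 fold change 8.49, SE 0.85, adjusted p = 0.000122). The other 3 members had at most 2 reads in the wild type group. Sprr2b had 35.2, 20.6 and 11.4 CPM in Epidermis KO and 1 read in Epidermis WT 2 (ratio 820, 95% counting interval 147 to 32438, adjusted p = 4.74e-05). Sprr2e had 68.1, 45.7 and 16.2 CPM in Epidermis KO and 1 read in the same wild type library (ratio 1578, 283 to 62366, adjusted p = 7.23e-05). Sprr2i had 71.9, 44.8 and 11.6 CPM in Epidermis KO and 2 wild type reads (ratio 776, 214 to 6411, adjusted p = 0.000184). These intervals span more than 10-fold, so the size of the rise is poorly bounded for them. Without Epidermis WT 2 the fitted log2 fold change of Sprr2b became 11.12 in place of 9.27 and that of Sprr2e 12.07 in place of 10.22, and without Epidermis KO 1 that of Sprr2i became 8.81 in place of 9.41.

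Each member kept its call under 17 alternatives in epidermis, with an adjusted p of at most 0.00721. One of these, chosen after seeing the data, left out Epidermis KO 2 and 3, the libraries with both Y-linked and Xist reads. It kept Epidermis KO 1, the highest library of its group for every member. This library was assumed to vary as the wild type ones did. The log2 fold changes were then between 6.45 (Sprr2a1) and 11.72 (Sprr2d), with 9.92 for Sprr2b, 10.87 for Sprr2e, 9.08 for Sprr2f, 7.30 for Sprr2g and 10.16 for Sprr2i. All 3 Epidermis KO libraries held Y-linked reads (1781, 213 and 679), so their presence and the genotype cannot be told apart in this tissue. Neutrophil markers summed to between 46.8 and 79.1 CPM in Epidermis KO and between 0 and 0.177 CPM in Epidermis WT. Of these 7 genes only 2, Cxcr2 and Csf3r, had enough reads to be tested, and both were higher. Cxcr2 averaged 55.2 CPM in Epidermis KO and Csf3r 6.53 CPM, of a mean sum of 67.2 CPM. Ly6g, Csf3r, Elane and Retnlg were at 0 in Epidermis WT, and Elane was at 0 in Epidermis KO too. Fibroblast markers were higher in Epidermis KO for 7 of 7 genes tested, at levels that remained low. Basal keratinocyte markers summed to between 12478 and 16633 CPM in Epidermis KO and between 30719 and 35881 CPM in Epidermis WT, with 0 of 8 genes higher and 6 lower. Suprabasal keratinocyte markers summed to between 58808 and 84643 CPM in Epidermis KO and between 45214 and 58094 CPM in Epidermis WT, with 2 of 8 genes higher and 4 lower. The part of any of these in the Sprr2 result was not tested.

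Whether the knockout effect differed between epidermis and skin was tested by the interaction of genotype and tissue in 1 fit of 12 libraries, where 16.5% of 15394 genes were called (10.1% higher and 6.36% lower). No member was called by edgeR, and 1 member, Sprr2g, had an unadjusted p below 0.05. Its interaction was -2.63 on the log2 scale (SE 1.20, adjusted p = 0.149), where a negative value is a smaller knockout effect in epidermis than in skin. DESeq2 called this 1 member (log2 -2.66, adjusted p = 0.0127), and limma-voom called none. The Sprr2a copies had interactions of -0.30 (SE 0.46), 0.11 (SE 0.52) and 0.18 (SE 0.51). For Sprr2b, Sprr2f and Sprr2i the standard errors were between 2.06 and 2.91, as their wild type groups held between 1 and 4 reads, so a difference of several fold was not detectable there. Sprr2e, with 1 read in Epidermis WT, had 0.10 (SE 0.72). Its value ran from -4.15 to 2.11 when single libraries were left out, so this standard error understates its uncertainty. Sprr2d had 0.52 (SE 1.07) and Sprr2h -0.17 (SE 0.91). Without Epidermis KO 3, Sprr2g was called by edgeR as well (log2 -2.26, adjusted p = 0.0471), and without the 3 knockout libraries that held both Y-linked and Xist reads it was not (-1.91, adjusted p = 0.182).

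The knockout groups, where all members were well covered, were then compared directly between tissues. The 3 Sprr2a copies did not pass the test and their groups overlapped, whereas each of the other 7 members was lower in every Epidermis KO library than in every Skin KO library. By edgeR, 6 of the 10 members were lower at an adjusted p below 0.05 and none was higher, against 15.9% of 14117 genes lower and 14.1% higher (29.9% called in either direction). The groups did not overlap in the lower direction for 7 members, as for 23.6% of all genes, while 24.3% were separated in the higher direction. Summed, the 7 members had 559 ± 322 CPM in Epidermis KO and 1779 ± 181 CPM in Skin KO, 3.18 times less, while the Sprr2a copies had 8507 ± 2955 CPM in Epidermis KO and 6612 ± 613 CPM in Skin KO (SD, n = 3 each). This grouping into 3 and 7 members was made after the values had been seen, and the difference between the sets was not tested.

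Sprr2b differed most, by -2.60 on the log2 scale (SE 0.36, adjusted p = 0.00363), with means of 22.4 ± 11.998 CPM in Epidermis KO and 135 ± 5.88 CPM in Skin KO. For Sprr2e the difference was -2.16 on that scale (SE 0.44, adjusted p = 0.0119), with 43.3 ± 26.1 CPM in Epidermis KO and 193 ± 14.5 CPM in Skin KO. Sprr2g (-1.93, SE 0.48, adjusted p = 0.0235), Sprr2i (-1.88, SE 0.54, adjusted p = 0.0366), Sprr2h (-1.86, SE 0.38, adjusted p = 0.0119) and Sprr2d (-1.39, SE 0.39, adjusted p = 0.0335) were also lower. For Sprr2f the value was -1.46 (SE 0.48, adjusted p = 0.0586), which missed the threshold although its groups did not overlap. The Sprr2a copies had log2 fold changes of 0.12 (SE 0.21), 0.37 (SE 0.27) and 0.22 (SE 0.23), with adjusted p of 0.691, 0.335 and 0.511.

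How many members were called depended on single libraries. Without Skin KO 2, without Skin KO 3 or without Epidermis KO 2 the number fell to 3, and without Epidermis KO 3 it was 7. Sprr2i moved to -2.48 without Epidermis KO 1. Without the 3 libraries that held both Y-linked and Xist reads, 2 skin libraries and 1 epidermis library remained. The epidermis library kept, Epidermis KO 1, was the highest of its group for every member. The 7 members then lay between -1.97 (Sprr2b, adjusted p = 0.0971) and -0.72 (Sprr2d, adjusted p = 0.233), all still lower in Epidermis KO, and no gene was called among 14840 tested, of which 3197 had an unadjusted p below 0.05. With total counts in place of TMM scaling the median of all genes moved to -0.284 in place of 0.008, and 12.4% of all calls were higher in place of 47.1%. Sprr2a1 and Sprr2a3 then turned to -0.20 and -0.10, neither called. Sebaceous gland markers summed to between 318 and 529 CPM in Epidermis KO and between 1405 and 1964 CPM in Skin KO, hair shaft and inner root sheath markers to between 93.0 and 838 CPM in Epidermis KO and between 271 and 6840 CPM in Skin KO, and suprabasal keratinocyte markers to between 58808 and 84643 CPM in Epidermis KO and between 34899 and 40913 CPM in Skin KO. Fibroblast markers were lower in Epidermis KO for 8 of 8 genes, skeletal muscle and adipocyte markers for 6 of 6 each and sebaceous gland markers for 6 of 6. The part of these markers in the result was not tested.

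**Figure D3:**
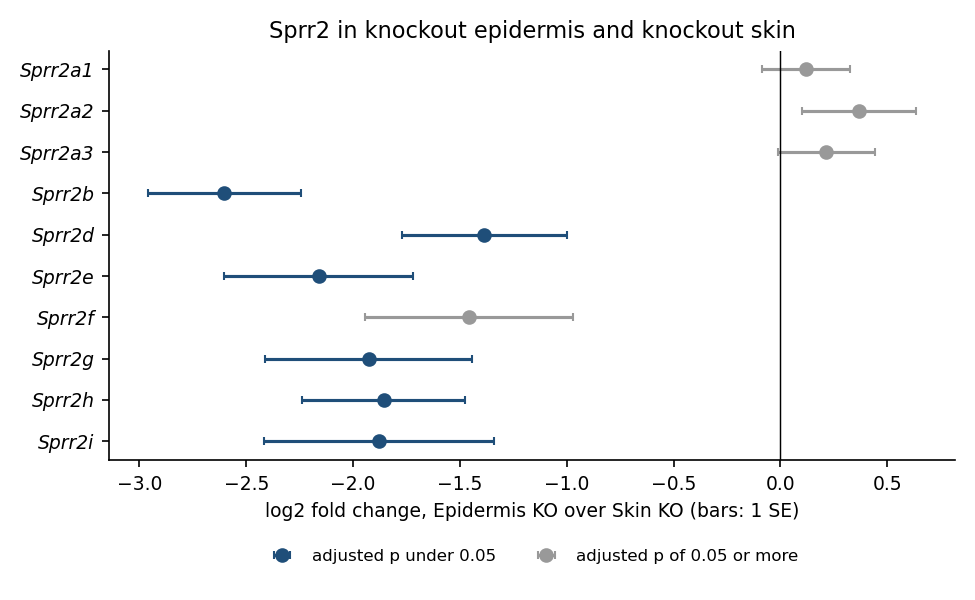
Log2 fold change of each Sprr2 member in Epidermis KO over Skin KO (x axis), 1 point a member, blue where the adjusted p was below 0.05. Bars show 1 SE, the log2 fold change without its sign divided by the square root of the F statistic. The 3 Sprr2a copies lie between 0.12 and 0.37 and the other 7 members between -2.60 and -1.39.

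Reads were also expressed as shares of the family. The Sprr2a copies held 78.8 ± 0.42% of Sprr2 reads in Skin KO and 94.6 ± 1.44% in Skin WT (SD, n = 3 each). In epidermis they held 94.1 ± 2.09% in Epidermis KO and 97.6 ± 1.22% in Epidermis WT. The 3 Skin KO libraries thus stood below the other 9, with 78.4% to 79.2% against 92.7% to 99.0%.

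**Figure D4:**
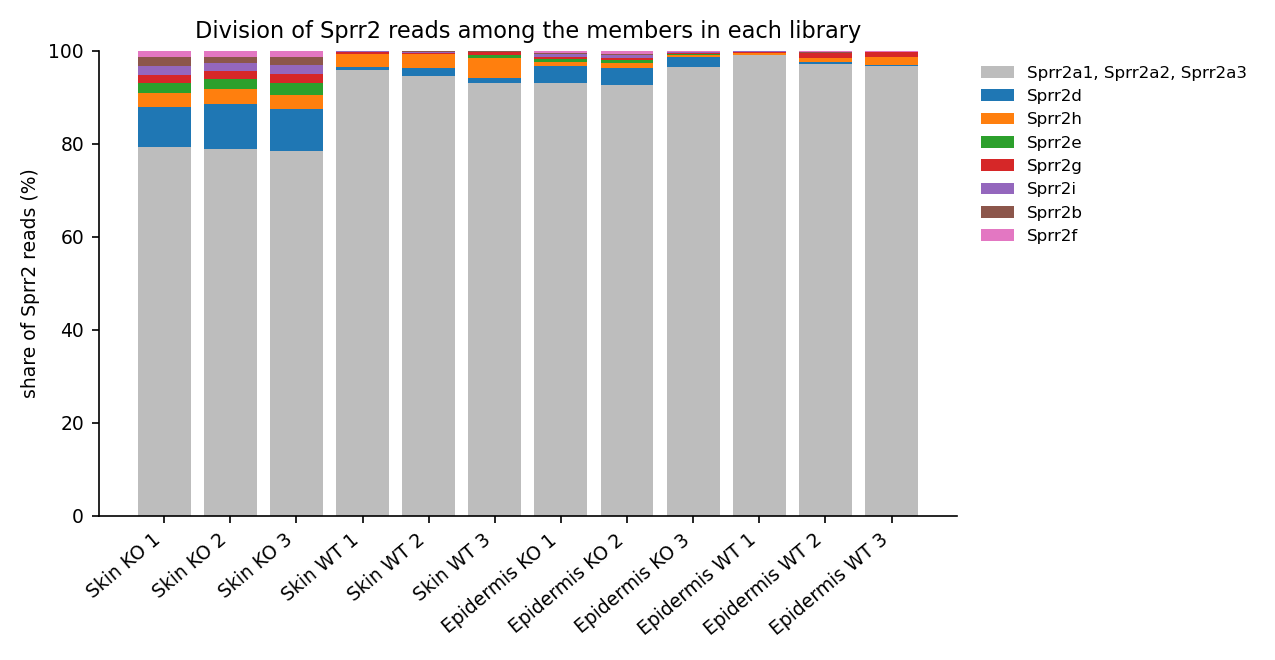
Share of Sprr2 reads (y axis, percent) that went to the 3 Sprr2a copies together and to each other member, 1 bar a library. In the Skin KO libraries the Sprr2a copies hold 78.4% to 79.2%, and in the other 9 libraries 92.7% to 99.0%.

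Epidermis and skin were also compared within the wild type, where the summed level was 63.5 ± 23.0 CPM in Epidermis WT and 55.1 ± 24.4 CPM in Skin WT (SD, n = 3 each). Only 4 members had enough reads to be tested, and 1 of them was called lower in epidermis, where 25.3% of 14596 genes were called lower and 42.9% in either direction. Sprr2h had 0.61 ± 0.31 CPM in Epidermis WT and 1.94 ± 1.13 CPM in Skin WT (log2 fold change -1.70, SE 0.59, adjusted p = 0.0488), with overlapping groups. Among the members with too few reads to test, the groups did not overlap for Sprr2d, with 5 reads in Epidermis WT and 26 in Skin WT, and for Sprr2f, with 4 in Epidermis WT and 2 in Skin WT. Of all genes tested, 29% were separated in the lower direction and 27.5% in the higher. That call was lost without Skin WT 1 or 3 or any 1 of the Epidermis WT libraries (log2 fold change -2.17 to -1.20 over the 6 omissions). The Sprr2a copies had log2 fold changes of 0.43 (SE 0.43), 0.23 (SE 0.40) and 0.01 (SE 0.46), none called. With total counts in place of TMM scaling the median of all genes was -0.301 in place of -0.066, 23.7% of all calls were higher in epidermis in place of 40.9%, and Sprr2a3 turned to -0.22 without a call.

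Levels between members were compared per length, as TPM. In Skin KO, Sprr2a2 was highest at 15510 ± 1366 TPM, followed by Sprr2d at 2130 ± 327 TPM, and in every library both lay above the member that came after them. The next 4 in order did not each lie above their neighbour in all libraries, namely Sprr2a3 at 664 ± 50.9 TPM, Sprr2h at 610.0 ± 81.2 TPM, Sprr2e at 568 ± 52.2 TPM and Sprr2i at 494 ± 29.0 TPM. Then came Sprr2g at 435 ± 51.1 TPM, Sprr2f at 366 ± 27.1 TPM, Sprr2b at 306 ± 9.47 TPM and Sprr2a1 at 48.5 ± 6.75 TPM, each above the next in every library. The places of Sprr2a1, Sprr2a2 and Sprr2a3, here and in the other groups, depend on how the program divided reads that fit several copies. They also depend on effective length, which was 2811 bases for Sprr2a1 and 533 for Sprr2a2 in Skin KO 1. Agreement among libraries does not settle this, since the same program divided the reads in each.

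In Epidermis KO, Sprr2a2 was again highest at 13818 ± 2373 TPM. Sprr2d at 547 ± 222 TPM and Sprr2a3 at 545 ± 99.3 TPM did not differ beyond their spread. Sprr2h at 114 ± 45.4 TPM, Sprr2f at 89.3 ± 48.5 TPM, Sprr2i at 88.7 ± 53.0 TPM, Sprr2e at 85.0 ± 41.1 TPM and Sprr2g at 75.9 ± 40.7 TPM overlapped one after another, and Sprr2a1 at 36.8 ± 4.43 TPM and Sprr2b at 34.1 ± 12.8 TPM were lowest. In wild type tissue Sprr2a2 stood above every other member in all libraries, at 99.6 ± 40.5 TPM in Epidermis WT and 122 ± 58.8 TPM in Skin WT. Sprr2a3 averaged 3.94 ± 1.006 TPM in Epidermis WT and 5.6 ± 3.40 TPM in Skin WT, Sprr2h 0.97 ± 0.40 TPM in Epidermis WT and 4.96 ± 3.16 TPM in Skin WT, and no other member averaged above 1.52 TPM (SD, n = 3 each).

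The annotation holds 3 further Sprr2 copies that are not among the 10. Sprr2j-ps, 8.81 kb beyond Sprr2i, had 24.7, 29.7 and 36.0 CPM in Skin KO and 12.4, 7.89 and 3.88 CPM in Epidermis KO, with 0 reads in all 6 wild type libraries. Against 3 reads over the wild type group it was at least 518-fold higher in Skin KO (adjusted p = 0.000127) and at least 98.3-fold higher in Epidermis KO (adjusted p = 0.000414). Sprr2k averaged 4.72 ± 1.87 CPM in Skin KO and was at least 80.5-fold higher there (adjusted p = 0.00121), while in epidermis it was not tested. Sprr2c-ps had 0 reads throughout. Sprr2j-ps was also lower in Epidermis KO than in Skin KO (log2 fold change -1.91, SE 0.37, adjusted p = 0.0101). For Sprr2k that difference was -1.28 (SE 0.58, adjusted p = 0.139), and its groups overlapped.

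Genes around the cluster moved in both directions. Between S100a1 and S100a11, which bound the epidermal differentiation complex, 59 other genes were tested in skin, of which 25 were higher in Skin KO, 16 lower and 18 not called (median log2 fold change 0.71). In epidermis 58 were tested, with 20 higher in Epidermis KO, 22 lower and 16 not called (median -0.06). Before the cluster, Gm35439 at 37.9 kb was the nearest tested gene, with a log2 fold change of -0.45 in skin (SE 0.41, adjusted p = 0.407) and -1.13 in epidermis (SE 0.38, adjusted p = 0.0348). Behind it, Sprr4 at 91.0 kb was the nearest gene that was not called, at 0.54 in skin (SE 0.64, adjusted p = 0.526) and -0.19 in epidermis (SE 0.57, adjusted p = 0.802). In Epidermis KO against Skin KO, 37 of 56 other genes of the complex were lower, 1 higher and 18 not called, with a median of -1.70 beside -1.66 for the 10 members.

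**Figure D5:**
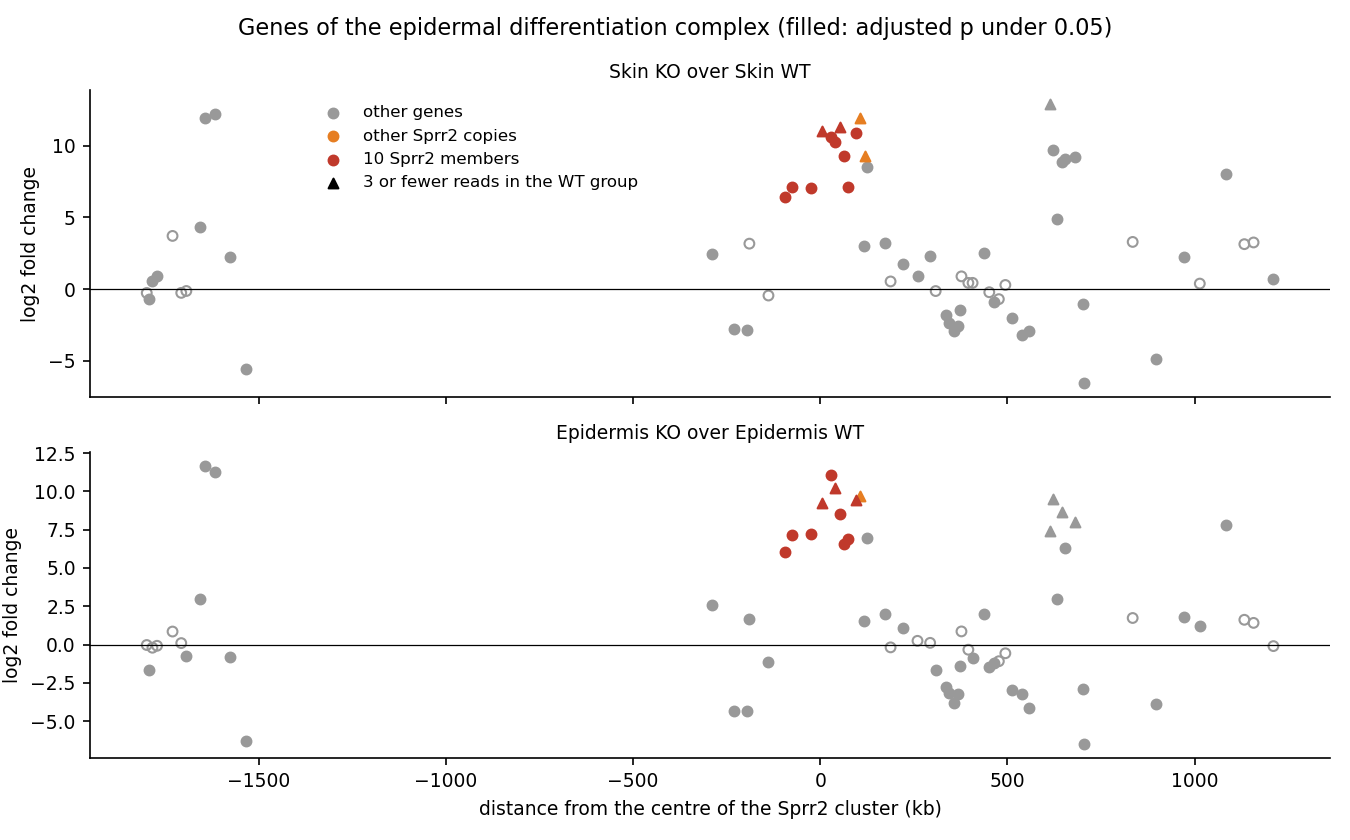
Log2 fold change (y axis) of genes of the epidermal differentiation complex against their distance from the centre of the Sprr2 cluster in kb (x axis), in Skin KO over Skin WT (top) and Epidermis KO over Epidermis WT (bottom), filled where the adjusted p was below 0.05. The 10 Sprr2 members lie between 6.03 and 11.29, while other genes of the complex lie on both sides of 0; triangles mark genes with 3 or fewer wild type reads, whose fitted values depend on an offset added to the counts.

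Of the Sprr genes outside the Sprr2 family, Sprr1b and Sprr1a rose in both tissues. Sprr1b, an envelope precursor of the same superfamily, had 634 ± 261 CPM in Skin KO and 1.80 ± 0.47 CPM in Skin WT (log2 fold change 8.54, SE 0.47, adjusted p = 7.42e-05), and 263 ± 155 CPM in Epidermis KO against 2.13 ± 0.94 CPM in Epidermis WT (6.96, SE 0.57, adjusted p = 4.38e-05). Sprr1a rose less, by 3.19 in skin (SE 0.30, adjusted p = 0.000452) and 1.98 in epidermis (SE 0.18, adjusted p = 7.16e-05) on the log2 scale. Sprr4 was not called in either tissue, and Sprr3 had too few reads to be tested. The envelope scaffold and crosslinking genes did not move as a group. In skin 8 of 19 were higher, 5 lower and 6 not called, with repetin (Rptn) at 8.04 (SE 0.53, adjusted p = 0.000127), the crosslinking enzyme Tgm1 at 1.68 (SE 0.16, adjusted p = 0.000491) and filaggrin 2 (Flg2) at -4.88 (SE 0.52, adjusted p = 0.000664). In epidermis 7 of 19 were higher, 8 lower and 4 not called, with Rptn at 7.79 (SE 0.22, adjusted p = 8.45e-07) and Crct1 at -2.93 (SE 0.28, adjusted p = 0.000102).

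Stress keratins and alarmins were higher in Skin KO for 13 of 13 genes tested, with a median log2 fold change of 7.61, and in Epidermis KO for 10 of 11, with a median of 8.64. Among them S100a9, a subunit of calprotectin, stood at 12.24 in skin (SE 0.43, adjusted p = 1.51e-05) and 11.23 in epidermis (SE 0.57, adjusted p = 5.06e-06). Cytokines that act on keratinocytes were higher for 12 of 13 genes tested in each tissue, with medians of 3.87 in skin and 5.42 in epidermis, and the IL-36 cytokine Il1f6 stood at 6.36 (SE 0.18, adjusted p = 1.32e-05) and 5.43 (SE 0.27, adjusted p = 5.06e-06) in them. NRF2 targets, genes of the antioxidant response, were higher for 5 of 10 and lower for 1 in skin, and higher for 6 of 10 and lower for 1 in epidermis.

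Epidermal transcription factors, which include the Fos, Jun and POU factors, were higher for 15 of 25 genes and lower for 2 in skin, and higher for 7 and lower for 8 in epidermis. The ETS factor Ehf had 279 ± 15.9 CPM in Skin KO and 12.1 ± 1.97 CPM in Skin WT (log2 fold change 4.61, SE 0.16, adjusted p = 1.51e-05). In epidermis it had 249.02 ± 45.9 CPM in Epidermis KO and 9.30 ± 1.21 CPM in Epidermis WT (log2 fold change 4.76, SE 0.19, adjusted p = 2.01e-06). Junb, an AP-1 subunit, was higher in Skin KO by 1.35 on the log2 scale (SE 0.13, adjusted p = 0.000425), and lower in Epidermis KO, with 465 ± 76.6 CPM in Epidermis KO and 1724 ± 233 CPM in Epidermis WT (log2 fold change -1.87, SE 0.18, adjusted p = 9.04e-05). The knockout effect on Junb differed between the tissues, with an interaction of -3.15 (SE 0.21, adjusted p = 0.000116). Fos and Fosb likewise rose in skin and fell in epidermis, with interactions of -3.16 (SE 0.30, adjusted p = 0.000226) and -5.14 (SE 0.48, adjusted p = 0.000226). Fosl1 did so too (-6.01, SE 0.75). Jun and Jund fell in epidermis and were not called in skin. Fosl2 rose in skin and was not called in epidermis or for the interaction (-0.26, SE 0.26, adjusted p = 0.513). Atf3 fell in epidermis, to 288 ± 77.8 CPM in Epidermis KO against 2168 ± 461 CPM in Epidermis WT (log2 fold change -2.90, SE 0.25, adjusted p = 5.71e-05), and was not called in skin (0.28, SE 0.18, adjusted p = 0.243). In Epidermis KO against Skin KO, Fos stood at 2.64 (SE 0.19, adjusted p = 0.00151) and Pou2f3 at 0.79 (SE 0.09, adjusted p = 0.00245), both log2 fold changes and both higher in epidermis. Fosb, Atf3, Jun, Junb and Jund were also higher there, while Fosl1 (-0.42, SE 0.45) and Fosl2 (0.02, SE 0.10) were not called. Fos was also higher in Epidermis WT than in Skin WT (5.78, SE 0.26, adjusted p = 7.59e-06), as were Fosb (8.21), Atf3 (6.26) and Junb (3.94).

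Genes whose profile was most like that of the Sprr2 sum were ranked by the root mean square difference over the 12 libraries of centred log2(CPM + 0.5) values, among 14094 genes with a mean of at least 1 CPM. The nearest were 2610528A11Rik (0.338), Klk13 (0.364), Stfa1 (0.419), Aox4 (0.570) and Krt16 (0.619), followed by Stfa3, Chil1, Tdh, Uox and Sprr1b (0.655 to 0.811). Klk13 had 434 CPM in Skin KO, 1.13 CPM in Skin WT, 286 CPM in Epidermis KO and 2.12 CPM in Epidermis WT on average. Since Sprr2a2 dominates the sum, the members differed from it by between 0.122 (Sprr2a2) and 1.27 (Sprr2d), so that all 10 of these genes were nearer to the sum than 8 of the members. With 2 CPM added in place of 0.5, 7 of the 10 genes remained among the nearest 10.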

How the data were processed

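Poly(A)-selected RNA libraries were made with a stranded kit from 1 µg of total RNA, per the labels' protocols, and processed with bcl2fastq 2.17, STAR 2.5.1 and RSEM against mm10, per the submitters' processing notes. Neither the annotation release nor the read length or strandedness used in counting is stated in the labels or file headers. The deposited tables give for each of 47643 gene IDs the authors' RSEM expected count, TPM, FPKM and effective length, per the file headers, and between 8.42% and 9.98% of the expected counts in a library were not whole within 0.005. FPKM values were deposited by the authors and not used here. IDs were matched to GENCODE mouse release 21 for symbols and positions, and 419 had no match (at most 0.0612% of a library).

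Expected counts were rounded and tested with edgeR 4.0.16 (quasi-likelihood test, TMM scaling, filterByExpr, Benjamini-Hochberg over all genes tested, threshold 0.05) in R 4.3.3, each comparison on its own 6 libraries and the interaction on all 12. DESeq2 1.42.0, limma 3.58.1 (voom), other scalings, no filter on low counts, a 2-fold minimum, effective length offsets, the replicate number as a block, Y-linked reads as a covariate and the omission of each library were alternatives. The omission of the knockout libraries that held both Y-linked and Xist reads was added after seeing the data. Libraries of 1 group differed beyond sampling noise, so none was merged. Same-numbered skin libraries deviated together (r = 0.339, 0.359 and 0.206), while differently numbered skin libraries reached at most 0.114. The numbers may thus pair knockout with wild type skin, a reading the labels do not state. The skin values given come from an unpaired test, and the replicate block was run only as an alternative. In no other comparison did all same-numbered libraries deviate together.

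Members, gene lists and tests were chosen with earlier results of these data known. Outside the members, up to 4 genes a list with the smallest adjusted p were eligible to be named. Adam17, the other Sprr genes, the cluster's neighbours, the 10 nearest profiles and the remaining Fos and Jun factors were named as well. Protein sequences were not used here.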

Additional observations from a re-analysis of the deposited data

How the results depend on the processing

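All 170 member values in skin and all 170 in epidermis kept direction and call for knockout against wild type under the alternatives run, while 193 of 220 did so for the interaction, 46 of 60 between wild type tissues and 139 of 170 between knockout tissues. With a 2-fold minimum the genes called were 2022 in skin, 1589 in epidermis, 469 for the interaction, 2062 between wild type tissues and 478 between knockout tissues, and the members called lower were 0 between wild type tissues and 1 between knockout tissues. With Skin KO 2 as the only knockout library 2658 genes were called in skin, and with Y-linked reads as a covariate 4540 in epidermis. Without the knockout libraries that held both Y-linked and Xist reads, an alternative chosen after seeing the data, 3858 genes were called in epidermis, 482 for the interaction and 0 between knockout tissues, with 0 members lower between knockout tissues, and the interaction turned for Sprr2a1 (0.08) and Sprr2h (0.32). DESeq2 called 1 member for the interaction. Sprr2h lost its call between wild type tissues with limma-voom and with 1 fit of 12 libraries, which left 0 members.

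Leaving out 1 library gave 4944 to 7770 genes called in skin, 5856 to 6573 in epidermis, 1397 to 3940 for the interaction, 4198 to 7830 between wild type tissues and 2328 to 3561 between knockout tissues. Members called lower were 0 to 1 for the interaction, 0 to 1 between wild type tissues and 3 to 7 between knockout tissues. Over these omissions the interaction turned sign for Sprr2a2 (-0.21 to 0.47), Sprr2a3 (-0.17 to 0.56), Sprr2b (-2.47 to 0.37), Sprr2d (-0.01 to 1.95), Sprr2e (-4.15 to 2.11) and Sprr2h (-0.71 to 0.29). Between wild type tissues Sprr2a2 (-0.12 to 0.46) and Sprr2a3 (-0.36 to 0.34) turned, and between knockout tissues Sprr2a1 (-0.14 to 0.27) and Sprr2a3 (-0.11 to 0.38), none of them called. The interaction also turned with limma-voom for Sprr2a2 (-0.0039), Sprr2a3 (-0.0011) and Sprr2e (-1.99), and with total counts for Sprr2e (-0.02). Total counts turned Sprr2a3 between wild type tissues (-0.22) and Sprr2a1 (-0.20) and Sprr2a3 (-0.10) between knockout tissues.

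With the replicate block 6567 genes were called in skin, 6767 in epidermis, 2152 for the interaction, 5231 between wild type tissues and 2805 between knockout tissues. The block changed no member's call, and the interaction of Sprr2e became -0.01. Outside skin, same-numbered libraries correlated at 0.0745, 0.14 and -0.055 in epidermis and at most at 0.0303 between tissues. Differently numbered libraries reached 0.324 between tissues (Epidermis WT 2 with Skin WT 3).

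The log2 ratio of the summed members without the Sprr2a copies, a sum added after seeing the data, was 9.19 in skin, 8.72 in epidermis, -1.20 between wild type tissues and -1.67 between knockout tissues, in place of 7.25, 7.16, 0.21 and 0.11. The cause of these changes was not tested. Wild type groups with 4 or fewer reads limit the size of any rise in Sprr2b, Sprr2e, Sprr2f and Sprr2i.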
